A study of Brachypodium distachyon with 20 samples.

Results

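The 100 genes described here are those with the largest distance between late endosperm (LEN) and every other sampled tissue of the Brachypodium grain. They were chosen from the measured values themselves. With 1 gene named in the rule left out, 736 of the 23749 genes in the table met both minima of the rule. Their LEN mean was at least 4 log2 CPM (the log2 of the count of a gene scaled to a fixed library total). It was also at least 2 log2 above the mean of early endosperm (EEN). The 736 genes were ranked by the LEN mean minus the highest of the 9 other group means, and the first 100 were taken. The height of LEN over the other groups is therefore a property of the choice and is given without a test.

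The endosperm is the storage tissue of the grain and arises, like the embryo, from a fertilization event in the ovule. In grasses it first divides without cell walls, then forms cells, and during maturation its inner cells fill with starch and storage proteins while an outer aleurone layer stays alive to release enzymes at germination. Late endosperm of grasses is best known for transcripts of storage proteins, starch enzymes and enzyme inhibitors. The identifiers of the table were not paired with gene names, descriptions or sequences in the sources used here, so no such role is given to any of the 100 genes.

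All libraries came from the reference line Bd21, grown in a long-day chamber and pollinated by hand after emasculation. The 10 groups were embryos at 7 stages, named two-cell or quadrant (TCQ), pro-embryo (PEM; the labels write preembryo), transition (TRA), leaf early (LEE), leaf middle (LEM), leaf late (LEL) and mature (MAT), and EEN, LEN and seed coat (SEC). Each had 2 libraries, made from dissected material pooled over many embryos or grains and amplified as antisense RNA. EEN was collected when embryos were at TRA, and LEN and SEC when they were at LEL. LEN is what was left of the grain after the embryo and seed coat were taken away, so starchy endosperm and aleurone were not separated, and more cells of a kind cannot be told apart from more RNA per cell.

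The lowest value of a gene often recurred exactly in several libraries and is called its floor. The values are not corrected for transcript length, so where genes are picked by their log2 CPM level in a tissue, their order also depends on length and is not read as a result. As a check of the label, the 18 embryo lineage genes whose identifiers the study prints were looked up. In LEN 5 of them were above 0 log2 CPM (LOG3, LOG4, WOL, SCR and WOX9) and the others below it, and WUS, ZPR3, PLT1, WOX5 and CUC2 had 1 and the same low value in both libraries. LOG3, an enzyme gene of cytokinin activation in Arabidopsis, was at 5.66 and 5.52 in the LEN libraries and at no more than 0.49 in any embryo stage mean. The summed level of the 18 genes was 80.8 and 77.6 CPM in LEN, 90.8 and 99.8 in EEN, 23.8 and 22.3 in SEC, 125 in both LEL libraries and 67.6 to 2495 over all embryo libraries. It was 67.6 and 70.4 in MAT, so the sum of all 18 genes does not set LEN below MAT. The sum in LEN rests largely on LOG3, with a mean of 5.59 log2 CPM, the next highest being WOL with 3.87. A sum without LOG3 was not made. Levels in LEN were also taken relative to another tissue, for genes of at least 6 log2 CPM there. The 50th lowest level was 0.554% for LEL, at most 0.0876% for SEC, and 3.61% and 4.25% for MAT in the LEN libraries. For LEL and SEC this is read as a rough upper limit on RNA of that tissue in LEN, as the rank of 50 is a chosen setting. For MAT it is no such limit, since LEN was collected at LEL. Endosperm markers named by the study as families were not analysed here. In TRA, LEE, LEM and SEC, replicate 2 was above replicate 1 for 9 or 10 of the 11 listed genes with a LEN mean of at least 9 log2 CPM, and in PEM and MAT for 6.

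The list opened with a few genes that were all but restricted to LEN and continued into genes that other tissues also held. The distance from LEN to the next highest group ran from 2.64 to 11.68 log2, with a median of 3.80, and was at least 5 for 29 genes. The LEN means ran from 4.005 to 13.03 log2 CPM. The LEN libraries differed by a median of 0.116 log2 over the 100 genes and by at most 0.458, while the median over all genes was 0.160. In sum the 100 genes made up 3.71% and 3.995% of all CPM of the LEN libraries, against 0.207% and 0.208% in EEN, 0.0828% and 0.0772% in MAT, 0.0407% and 0.0367% in LEL, 0.0289% and 0.0286% in SEC, and 0.0126% to 0.0236% from TCQ to LEM. Bradi4g44410.1 and Bradi4g28220.1 gave a large part of this sum, and without them the LEN share was 2.12% and 2.25%.

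**Figure D1:**
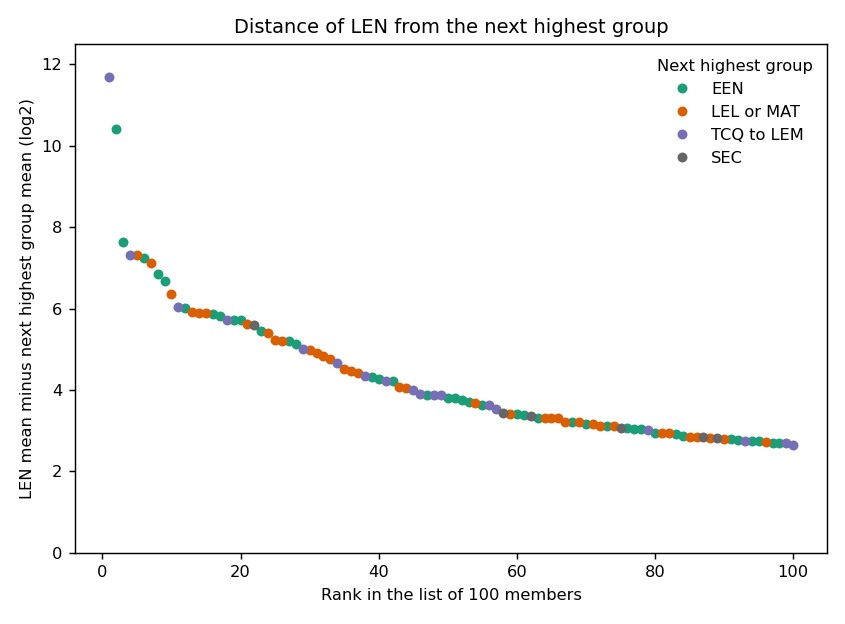
LEN mean minus the next highest group mean (y axis, log2) against rank in the list (x axis), coloured by the next highest group. The distance falls from 11.68 at the first gene to 2.64 at the last, and no kind of next highest group is kept to a single stretch of the ranks.

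No gene reached more than 16.0% of its LEN level in any other group mean. The median level relative to LEN was 2.49% in EEN and 1.83% in MAT, and 0.456% to 0.844% in SEC and the other embryo stages. EEN held 16 genes at more than 10% of their LEN level and MAT held 15, against 4 in SEC and 0 to 3 in each of the other embryo stages. In EEN, 63 of the 100 genes were above 0 log2 CPM (1 CPM) and in MAT 52, whereas in TRA and LEM only 19 and 18 were. Over all tested genes 75.9% to 79.9% were above 0 in each of the 10 groups. There were 11 genes below 0 in all 9 other groups and 7 above 0 in every group. For 4 genes in EEN and for 8 to 24 genes in each other group both libraries were at the floor, so those relative levels are set by the floor.

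**Figure D2:**
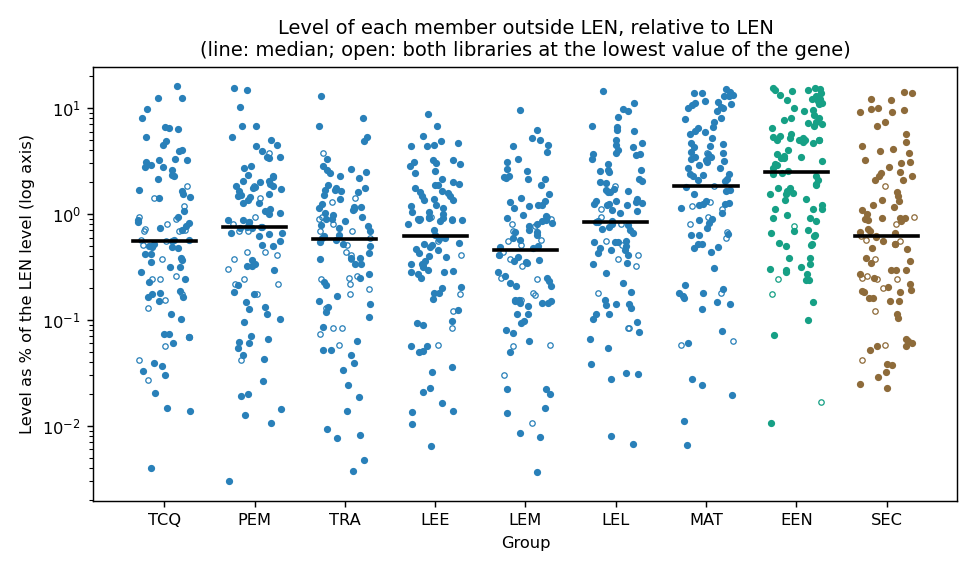
Level of each of the 100 genes in the 9 other groups as a percent of its LEN level (y axis, log scale), with 1 point for each gene, open where both libraries of the group were at the floor of the gene, and a line at the median. The medians are highest in EEN (2.49%) and MAT (1.83%).

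Bradi4g32140.1 headed the list and was close to silent outside LEN. It was at 9.47 and 9.63 log2 CPM in the LEN libraries, at its floor of -2.98 in both EEN libraries, and between -2.98 and -1.28 in all others. Bradi2g49767.1 stood at 7.90 and 7.88 in LEN, and at its floor of -2.86 in 14 of the 18 other libraries, the highest of these being -2.20 in an EEN library. Bradi2g17881.1 was at 6.502 and 6.53 in LEN, and its highest value elsewhere was -0.76, in an EEN and a TRA library. Bradi1g09487.1, at 6.22 and 6.14 in LEN, was at its floor of -2.99 in EEN and in all libraries from TCQ to LEE, and had its highest embryo values in LEL, with -0.65 and -1.22, and MAT, with -1.64 and -1.15, all below 1 CPM.

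For 40 genes EEN was the next highest group. This sorting by itself puts their means in the embryo stages and SEC below EEN, so only the size of the gap is described. Over these 40 genes the median was 2.17 log2 CPM in EEN and 6.45 in LEN, while it was between -2.39 and -1.19 in the embryo stages and SEC. Bradi2g02140.1 was at 4.64 and 3.91 in EEN, 10.72 and 11.18 in LEN, 2.87 and 2.39 in MAT, and no higher than 0.14 in any library of another group. Bradi2g02150.1 was at -0.08 and 0.38 in EEN and 7.02 and 6.998 in LEN, and at most -1.50 elsewhere. Bradi4g09430.1 went from 5.31 and 4.80 in EEN to 10.67 and 10.89 in LEN, and in the embryo it was highest in the TCQ libraries with 1.63 and 1.47. The EEN and LEN libraries of these genes did not overlap, which the choice of a distance of 2 log2 between the means made likely.

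The 3 genes picked for their EEN level were well above 1 CPM at both ages of the endosperm. Bradi4g28220.1 was at 10.12 and 10.17 log2 CPM in EEN and 12.83 and 12.93 in LEN, and Bradi2g20860.1 at 7.97 and 7.10 in EEN and 10.15 and 10.33 in LEN. Bradi3g11430.1 differed from them in its embryo profile. It was at 0.04 and 0.22 in TCQ, 2.32 and 2.48 in PEM, 0.87 and 0.88 in LEE, and 5.38 and 5.36 in MAT. In the endosperm it was at 5.76 and 6.07 in EEN and 9.30 and 9.29 in LEN. In SEC it was as low as in TCQ, with -0.29 and 0.29.

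For 36 genes the next highest group was a late embryo stage, MAT for 33 and LEL for 3. Their median was between -2.33 and -1.95 log2 CPM from TCQ to LEM, -0.06 in LEL, 2.05 in MAT, -0.24 in EEN and 6.19 in LEN. Bradi4g44410.1 was at 12.92 and 13.14 in LEN, 5.68 and 5.76 in MAT, and 3.13 and 3.04 in LEL, and at most 2.05 in each other library. The neighbours by identifier Bradi1g29880.1 and Bradi1g29887.1 both had LEN above MAT and MAT above LEL, with 10.60 and 10.79 in LEN and 5.87 and 5.57 in MAT for the former, and 7.79 and 8.07 in LEN and 1.64 and 1.48 in MAT for the latter. Over all 100 genes, MAT was the embryo stage with the highest mean for 42, and 23 were above 1 CPM in MAT but below it at each stage from TCQ to LEM. The same counts were not made over all genes, so they are not read as a trait of the list.

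The level in MAT relative to LEN varied widely between genes. It was 0.630% for Bradi4g44410.1, 3.19% for Bradi1g29880.1 and 13.0% for Bradi1g37410.1, but 0.00657% for Bradi4g28220.1 (-2.38 and 0.35 log2 CPM in the MAT libraries) and 0.0278% for Bradi4g32140.1. All of these shares enter the ranking, and whether endosperm RNA was part of the MAT libraries was not tested. No group of the series is endosperm of the age of MAT grains.

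A smaller group of 18 genes had its next highest mean at a stage from TCQ to LEM, 8 of them in TCQ and 5 in PEM. Bradi2g38220.1, the last gene of the list, fell from 5.24 and 5.38 in TCQ to -1.24 in both LEM libraries and was at 5.05 in both MAT libraries, beside 0.60 and 0.72 in EEN and 7.98 and 7.93 in LEN. Bradi4g14920.1 was at 8.66 and 8.88 in LEN and had values between 0.70 and 1.59 from PEM to LEE only, all other libraries being below 0. Of the 31 genes with a mean above 1 CPM in TCQ, 20 were below it in LEM, a count likewise not made over all genes.

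SEC was the next highest group for 6 genes. The 3 genes picked for their SEC level were Bradi5g04030.1 (6.67 and 6.51 log2 CPM in SEC), Bradi1g37410.1 (5.89 and 5.87) and Bradi1g48477.2 (4.13 and 4.09). Of these only Bradi1g48477.2 was among the 6. For Bradi5g04030.1 and Bradi1g37410.1 the next highest group was MAT. Bradi5g04030.1 was present throughout, between 4.91 and 7.31 in all embryo libraries and at 9.93 and 10.004 in LEN, with its lowest values, 3.62 and 3.31, in EEN. Bradi1g37410.1 was at most -1.34 from TCQ to LEE, at 0.42 and 0.49 in EEN, 6.01 and 5.93 in MAT and 8.96 and 8.86 in LEN. The labels name these samples only as seed coat. The submitters' extraction notes state that embryos were removed and the seed coat kept, while the paper's methods state that the endosperm was removed as well. Whether endosperm RNA was part of the SEC libraries was not tested. In SEC the lowest level relative to LEN among the 100 genes was 0.0227% (Bradi1g29880.1) and the highest 14.2% (Bradi3g59690.1, chosen after its values were seen).

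**Figure D3:**
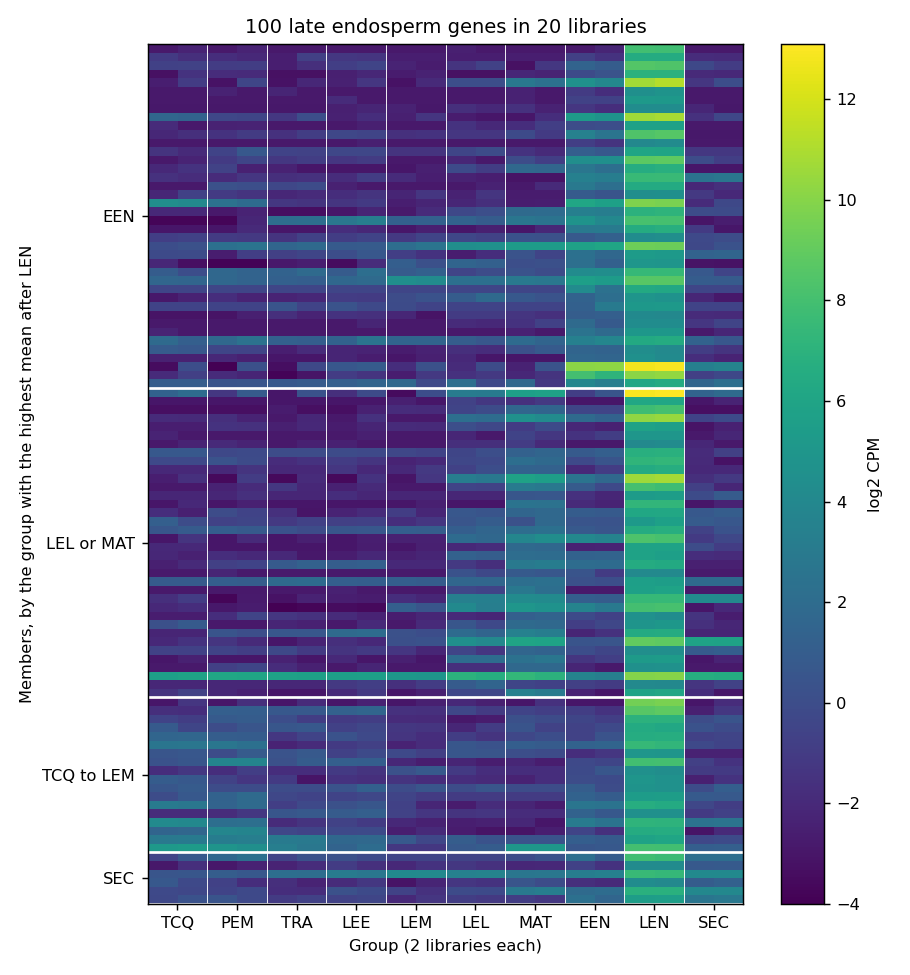
log2 CPM (colour) of the 100 genes (rows) in the 20 libraries (columns, 2 for each group). Rows are grouped by the group with the highest mean after LEN, EEN for 40 genes, LEL or MAT for 36, TCQ to LEM for 18 and SEC for 6, and the LEN columns are bright in all of them.

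**Figure D4:**
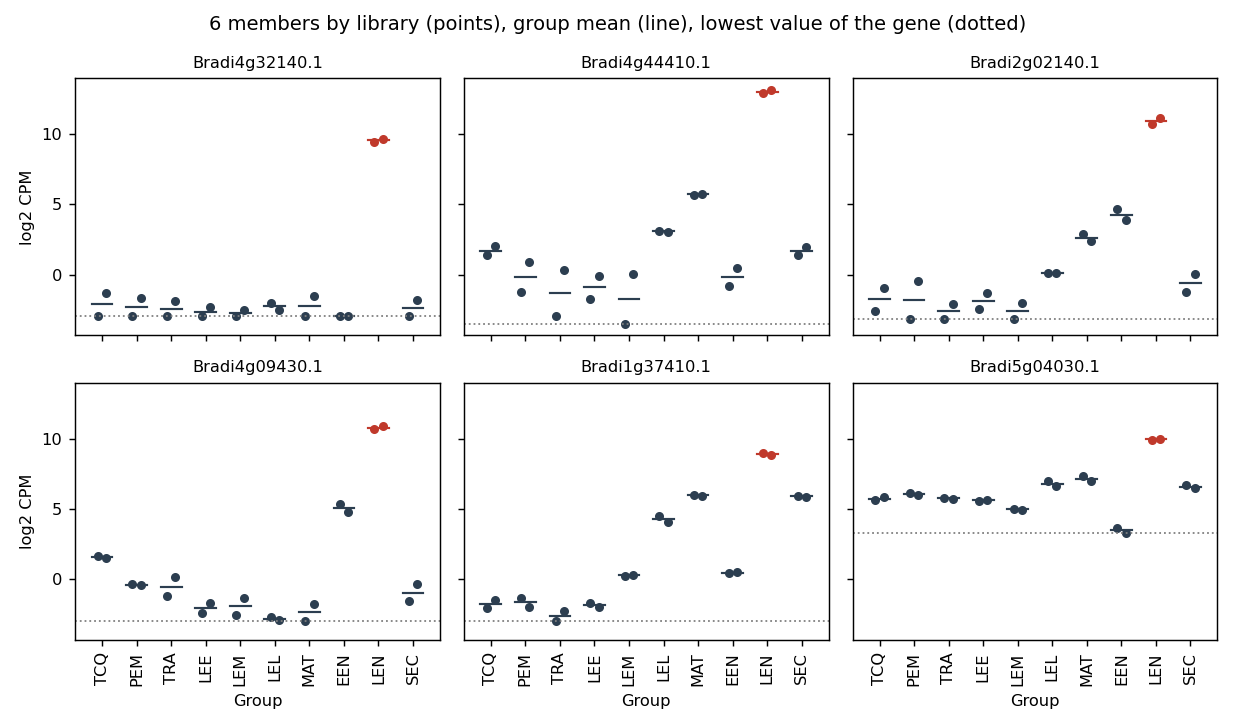
log2 CPM (y axis) of 6 of the genes by group (x axis), with a point for each library, a line at the group mean and a dotted line at the lowest value of the gene. Bradi4g32140.1 lies near its floor outside LEN, Bradi4g44410.1 rises in LEL and MAT, Bradi2g02140.1 and Bradi4g09430.1 are raised in EEN, Bradi1g37410.1 is high in MAT and SEC, and Bradi5g04030.1 is lowest in EEN.

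Comparisons that do not involve LEN asked how the same genes behaved in the rest of the grain. The test was limma, fitted once to all 20 libraries and to the 22902 genes above 1 CPM in at least 2 libraries, with Benjamini-Hochberg adjusted p called at 0.05. All 100 genes passed this minimum, but 13 of them did so only through LEN, and the other 87 were above 1 CPM in at least 2 libraries of other groups. Counts are therefore also given for the genes above 1 CPM in at least 2 libraries of the groups compared, a restriction added after seeing the data. A gene can enter such a set through the group where it is high, which makes a call in that direction more likely. In EEN 63 of the 100 genes had a mean above 1 CPM and in TRA 19, with 77.2% and 77.8% of all tested genes. In LEL and MAT 32 and 52 of the 100 did, with 79.4% and 75.9%. The restricted shares are thus no like comparison with all genes and no further support. The first comparison was that of endosperm with the embryo of the same age, EEN against TRA. Here 70 of the 100 genes were higher in EEN, with 34.8% of all tested genes higher, and 9 were lower, with 36.6% of all genes lower. The median change was 1.99 log2 for the 100 genes and -0.04 for all genes. With the restriction, 51 of 63 were higher and 9 lower, and of all genes 37.3% were higher and 38.8% lower. Bradi2g02140.1 was 6.89 log2 higher in EEN than in TRA (SE 0.76, adjusted p = 8.17e-07), Bradi4g09430.1 5.603 (SE 0.51, adjusted p = 9.37e-08) and Bradi4g01703.1 3.37 (SE 0.50, adjusted p = 1.99e-05). Bradi4g14920.1 was lower in EEN, with a change of -1.92 (SE 0.35, adjusted p = 0.00015). Among the 636 other genes that met both minima of the rule, 46.2% were higher and 35.8% lower in EEN.

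In the last step of embryo development, from LEL to MAT, 45 of the 100 genes rose (24.7% of all tested genes) and 4 fell (27.9% of all genes). The median change was 0.55 log2, against -0.01 for all genes. With the restriction, 37 of 51 rose and 3 fell, and of all genes 29.1% rose and 30.2% fell. Bradi1g29887.1 rose by 1.86 log2 (SE 0.29, adjusted p = 6.92e-05), from -0.49 and -0.10 to 1.64 and 1.48, and Bradi2g38220.1 by 4.16 (SE 0.19, adjusted p = 2.63e-10). Bradi4g44410.1 had a change of 2.63 (SE 1.07, adjusted p = 0.0504), which did not pass. Its SE pools the spread within all 10 groups, with LEM libraries at -3.49 and 0.07. The libraries compared lay close together, at 3.13 and 3.04 in LEL and 5.68 and 5.76 in MAT. Of the 636 other genes that met both minima, 51.9% rose and 11.5% fell in this step. With the library medians set equal, 51 of the 100 genes rose and 3 fell, and over all genes 7836 rose and 4737 fell in place of 5646 and 6379.

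From TRA to LEL, 42 of the 100 genes rose (34.3% of all tested genes) and 18 fell (34.7%). With the restriction, 22 of 35 rose and 9 fell, and of all genes 37.3% rose and 37.4% fell. Of the 636 other genes, 69.0% rose and 15.3% fell. Bradi4g44410.1 rose by 4.41 log2 (SE 1.07, adjusted p = 0.00177) and Bradi1g29880.1 by 5.75 (SE 0.81, adjusted p = 1.25e-05), while Bradi4g09430.1 had a change of -2.29 (SE 0.51, adjusted p = 0.000948). From TCQ to MAT, 54 genes were higher (39.0% of all genes) and 16 lower (39.9%), and of the 636 other genes 74.1% were higher and 17.0% lower. With the restriction, 41 of 63 were higher and 10 lower, and of all genes 42.1% were higher and 42.2% lower. Among all 7 embryo stages 86 of the 100 genes differed by the F-test, with 93.3% of all tested genes, and with the restriction 69 of 73, with 96.2% of all genes.

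Between SEC and LEL, of the same age, 23 of the 100 genes were higher in SEC (37.4% of all genes) and 36 lower (39.3%), with a median change of 0.01, and of the 636 other genes 38.7% were higher and 49.5% lower. With the restriction, 13 of 42 were higher and 17 lower, and of all genes 39.7% were higher and 41.7% lower. Against EEN, 14 were higher in SEC (37.2%) and 61 lower (40.4%), with a median change of -1.51 log2, and of the 636 other genes 54.6% were higher and 34.1% lower. With the restriction, 11 of 62 were higher and 42 lower, and of all genes 40.1% were higher and 42.6% lower. Bradi1g29887.1 was at its floor of -3.28 in both SEC libraries. The differences of the 100 genes from all genes and from the 636 other genes in these counts were not tested, and the 6 comparisons share libraries. The ranking itself also favours genes with low levels outside LEN.

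**Figure D5:**
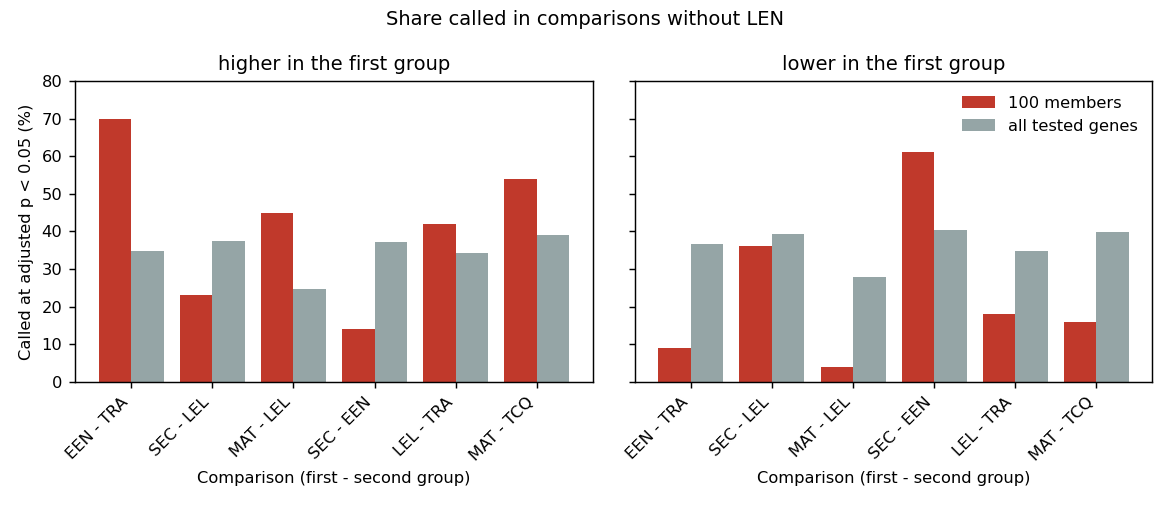
Percent of the 100 genes (red) and of all 22902 tested genes (grey) called higher (left) or lower (right) in the first group of each of 6 comparisons without LEN, in limma at an adjusted p of 0.05. The widest gaps are those for EEN against TRA, with 70 of 100 genes higher and 34.8% of all genes.

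Of the 100 genes, 29 were both higher in EEN than in TRA and rising from LEL to MAT, 41 had only the call for EEN, 16 only that for MAT, and 14 neither. Over all tested genes both calls were made for 11.6%, only that for EEN for 23.2%, only that for MAT for 13.07% and neither for 52.1%. No relation between the calls was tested. The counts include the 13 genes that passed the minimum only through LEN. They were not made over the 636 other genes that met both minima, of which 51.9% rose from LEL to MAT. The joint counts are therefore not read as a trait of the list. Bradi2g02140.1 and Bradi1g29887.1 were among the 29. The earlier member of the pair of neighbours, Bradi1g29880.1, was so as well, at 2.56 and 1.79 log2 CPM in EEN, but its call for MAT was lost without LEL replicate 2 (2.49 log2) and without MAT replicate 1 (2.53 log2). The call for Bradi2g02140.1 in MAT was lost without MAT replicate 1 (2.28 log2).

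The identifiers of Brachypodium genes carry a chromosome number and a running number along the chromosome, and by these the 100 genes were spread over all 5 chromosomes. There were 29 on chromosome 1, 26 on chromosome 2, 14 on chromosome 3, 24 on chromosome 4 and 7 on chromosome 5, of 7000, 5426, 5257, 3830 and 2233 measured genes in that order. By running numbers at most 100 apart, 16 of the genes fell into 7 runs of 2 or 3. In 3 of the runs, no measured gene lay between the members, and their profiles outside LEN can be set side by side. Bradi1g29880.1 and Bradi1g29887.1 both rose in LEL and MAT. Bradi2g24810.1 and Bradi2g24820.1 were both higher in MAT (4.63 and 4.24, and 3.51 and 3.09 log2 CPM) than in LEL (2.27 and 2.05, and -0.33 and -0.34), but in EEN the former was at 1.88 and 1.38 and the latter at -2.38 and -2.98. Bradi4g09417.1 and Bradi4g09430.1 shared raised levels in EEN and in TCQ, where Bradi4g09417.1 was at 4.402 and 4.08. In the other 4 runs 20 measured genes lay between, and 4 of them were at least 2 log2 higher in LEN than in EEN, as were 7.63% of all genes. These pairs were chosen after their values were seen. Whether neighbours are similar in sequence, so that their reads could be shared between them, was not analysed here.

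At the end of the list the distances were close together. The last gene inside, Bradi2g38220.1, had a distance of 2.64 log2 from LEN to TCQ, and the gene before it, Bradi2g02050.1, 2.70 to PEM. The first gene outside, Bradi2g02410.1, had 2.63 log2 from LEN (8.26 and 8.34) to EEN (5.97 and 5.35).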

How the data were processed

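Per the submitters' processing notes, reads went through CASAVA, Trimmomatic and Salmon, and the paper's methods add that the transcripts were those of the JGI annotation and that the authors handled the counts in edgeR. The deposited values are log2 CPM as the authors made them, with a prior count not stated in the sources used, for 23749 genes in 20 libraries. Depth per library is unknown, so no counting interval is given. The members and lists were chosen with earlier results of these data known. The 100 genes were ranked on the means of 2 libraries, and 1 gene is not reported here. The log2 CPM were fitted in R 4.3.3 with limma 3.58.1 (a mean for each of 10 groups, variances with a trend, 10 residual degrees of freedom), and 847 genes below the minimum were left out. The code was tested on simulated data. P-values measure the spread between libraries, since nothing states separate plantings. Named genes are the first 10 of the list, the 5 highest in LEN, the last inside and the first outside, and the 3 highest in EEN, SEC and any embryo stage. Of the identifiers, 0 were found among 31335 RefSeq genes, and the planned description lists and promoter motifs could therefore not be made. Alternatives were a replicate block, other filters and scalings, no variance trend, single libraries left out, and other ranking choices.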

Additional observations from a re-analysis of the deposited data

Results flagged for a closer look

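The times compared were TRA to LEL in the embryo and EEN to LEN in the endosperm. Over these, 3 of the 19 named genes of the list moved in opposite directions in all libraries of both tissues. This separation by libraries was not counted over all genes, so the 3 genes are single cases and not a trait of the list. By the limma calls 18 of the 100 genes fell from TRA to LEL, a smaller share than the 34.7% of all tested genes. In the embryo the change was -1.43 log2 for Bradi4g14920.1, -2.29 for Bradi4g09430.1 and -2.16 for Bradi2g38220.1, while in the endosperm each rose. The difference between the tissues was not tested, because the rise in the endosperm was a condition of the choice.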

How the results depend on the processing

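The 100 genes were ranked again under 11 alternatives. Between 90 and 97 remained with single libraries of LEN or EEN left out, with replicate 1 or replicate 2 of every group alone, with library medians set equal, on log2(CPM + 1), or against the highest other library. With a LEN minimum of 6 log2 CPM 58 remained, all that reach it, and with a minimum of 2 there were 60, since 1254 genes then entered the ranking. The counts of genes called in the 6 comparisons and the F-test stayed within 1.5 times of the values given under each alternative run, except with the restriction to genes above 1 CPM in the groups compared, added after seeing the data. That restriction is no new test and counts the calls of the same fit over fewer genes. It gave 13 higher and 17 lower genes in SEC against LEL. From TRA to LEL it gave 22 rising and 9 falling genes, and 10 were lower in MAT than in TCQ. EEN against TRA gave 66 to 71 higher genes with single libraries left out, and LEL to MAT 35 to 39 rising genes. The differences between replicates correlated from -0.13 to 0.55 between groups, with a median of 0.05, and over 0.1 in 15 of 45 pairs of groups. Some groups thus shared a difference by replicate number. The sources name no pairing, and the main fit used none. With a replicate block 70 genes were higher in EEN than in TRA and 46 rose in MAT. Setting library medians equal moved the median of all genes by more than 0.1 log2 in several comparisons, the most from -0.05 to -0.46 in SEC against EEN, where 73 in place of 61 of the 100 genes were then lower. Among named genes 26 results lost their call under an alternative, 19 gained one and 980 did neither. The change of Bradi2g02150.1 between TCQ and MAT, 0.15 log2 with no call, was -0.70 without TCQ replicate 1 and 1.00 without TCQ replicate 2, which then passed, as the TCQ libraries were at -3.20 and -1.50. Without the genes at the floor in both libraries, an alternative added after seeing the data, the median distance to LEN fell from 7.35 to 7.06 in LEE, from 6.89 to 6.59 in LEL and from 5.77 to 5.44 in MAT. Read depth is unknown, and levels below 1 CPM rest on few reads.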

Other observations

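Among the 11 genes of the list with a LEN mean of at least 9 log2 CPM (a minimum chosen after seeing the data), replicate 2 was above replicate 1 more often in some groups than in others. It was higher for 9 of the 11 genes in TRA, with a median difference of 1.07 log2, for 10 in LEE (0.64), 9 in LEM (1.15), 10 in SEC (0.53) and 8 in TCQ (0.68). In PEM (0.17) and MAT (0.04) it was higher for 6 genes, in LEL for 4 and in EEN for 3. Over all genes the median difference between replicates in these groups was between -0.01 and 0.02 log2, and over the 89 other genes of the list it was 0 in TCQ, PEM, TRA, LEM and SEC and 0.11 in LEE, where 50 of the 89 were higher in replicate 2. Bradi4g28220.1 was higher in replicate 2 in all 9 groups, with -4.47 and 0.21 in the PEM libraries and -3.45 and 0.01 in the TCQ libraries. Over all 3145 genes of at least 6 log2 CPM in LEN, the lowest level relative to LEN was 0.000317% to 0.0141% in the replicate 1 libraries of the 9 other groups and 0.00709% to 0.0273% in the replicate 2 libraries, and within each group it was the higher in replicate 2. This rests on 1 gene in each library. The tenth lowest level was higher in replicate 1 in LEE (0.0298% against 0.0264%) and EEN (0.174% against 0.131%) and higher in replicate 2 in the other groups. The sources do not say which libraries were sequenced together. The origin of this difference was not tested.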
